A study of Bos taurus with 60 samples.

Results

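bta-miR-21-5p and bta-miR-21-3p (hereafter without the prefix) are the bovine mature microRNAs (miRNAs) cut from the left and the right side of the miR-21 hairpin. They were taken by name from the counted bovine miRNAs, in which they are 2 of 1030, and each was listed with 1 precursor. Liver small RNA was sequenced from 60 beef steers in 1 library each, 20 Angus, 20 Charolais and 20 Kinsella Composite (KC, a composite beef population). Within each breed, 6 steers carried a low-RFI label, 6 a high-RFI label and 8 no RFI label. Residual feed intake (RFI) is the feed an animal eats beyond what its size and growth predict, so that low-RFI steers are the efficient ones. By the study's methods, all 20 steers of a breed were taken from its high and low RFI ends. The labeled steers were those of extreme RFI whose miRNA expression was also judged consistent, so their labels are not independent of the counts. The finishing ration was shared by all steers and consisted of barley, given 75% as grain and 20% as silage, with 5% as rumensin pellets. The labels name no treatment. Exact ages were not in the labels; the study's methods describe the KC steers as the youngest and the Charolais steers as the oldest at slaughter, so breed and age cannot be told apart.

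miR-21 is among the most studied animal miRNAs. Its hairpin is transcribed from the end of the VMP1 gene region, and in the bovine RefSeq table (ARS-UCD2.0) MIR21 is listed between VMP1 and TUBD1. The 5p strand is the guide usually loaded into Argonaute, where it lowers transcripts such as PDCD4 mRNA, whereas the 3p strand is mostly discarded. In the liver, miR-21 is expressed by hepatocytes, stellate cells and leukocytes, and it is known for its rise with regeneration, inflammation and fibrosis.

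The mature sequences are shown because each arm carries a seed of its own. Bases 2 to 8, the seed that pairs with target transcripts, are in capitals, and the sequences are those the study lists for its bovine miRNAs.
miR-21-5p: uAGCUUAUcagacugauguugacu
miR-21-3p: aACAGCAGucgaugggcugucu
The 5p arm has 24 bases, 9 of them G or C, and the 3p arm has 22 bases, 12 of them G or C. A perfect target match to the seed reads AUAAGCU for 5p and CUGCUGU for 3p. Among the 588 mature bovine miRNAs with a listed sequence, 0 others share the 7-base seed of either arm. A near-identical sequence, with at least 18 bases aligned and at most 1 mismatch, was found for 0 others. Both searches covered the 588 only, so the rest of the 1030 counted miRNAs were not searched.

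Library totals ran from 1930859 to 6759381 counts, and the median was 3720336 for Angus, 4405876 for Charolais and 5547018 for KC steers. The KC files list 52 more pairs of miRNA and precursor than those of the other breeds, so breed, depth and counting cannot be told apart. Libraries were compared with the others of their breed over 214 miRNAs of at least 10 CPM (reads scaled to a common library size). Charolais steer 16 had 33 of them over 2-fold away from the median of its breed, Charolais steer 01 had 18 and Charolais steer 11 had 11, whereas no other library had more than 8 and the median was 3. Each of the 5 hepatocyte miRNAs was counted in every steer, miR-122 at 5203 to 18849 CPM and miR-192 at 170226 to 348195 CPM. Markers of stellate cells, leukocytes, red cells, endothelium and bile duct were also above 0 in every steer. In such bulk tissue, fewer cells of a type and less RNA per cell cannot be told apart.

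miR-21-5p was an abundant liver miRNA in every animal. Over the 60 steers it ranged from 10455 to 23727 CPM after trimmed mean of M-values (TMM) normalization, with a median of 14094 CPM. That corresponded to 0.972% to 2.36% of a library and to ranks between 8 and 14 of the 1030 miRNAs. The lowest and the highest steer differed 2.27-fold. miR-21-3p was scarce beside it, at 19.1 to 117 CPM with a median of 62.2 CPM, and ranked between 103 and 177. It rested on 74 to 703 reads per steer, compared with 28701 to 100545 reads for 5p.

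**Figure D1:**
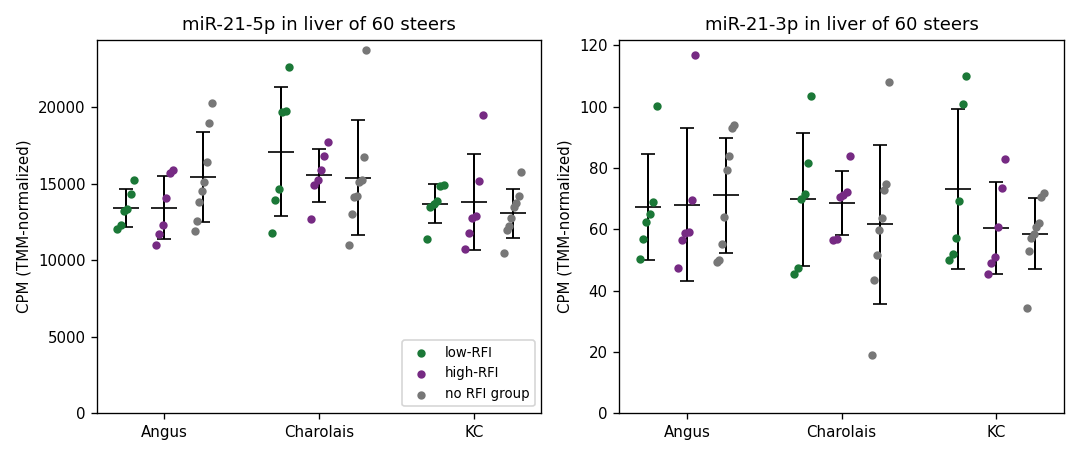
Levels of miR-21-5p and miR-21-3p in each of the 60 steers in CPM, by breed and RFI group, with each point a steer and bars giving the mean and SD of 6 or 8 steers. The groups overlap for both arms in all breeds, and the highest miR-21-5p value, 23727 CPM, is a Charolais steer without an RFI label.

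The scarce arm varied more between steers than the abundant arm. Within breeds the SD of log2 CPM was 0.25 for miR-21-5p and 0.44 for miR-21-3p. For miR-21-5p, 16 of the 45 miRNAs averaging at least 1000 CPM had a larger SD, and their median SD was 0.20. For miR-21-3p, 31 of the 214 averaging at least 10 CPM had a larger SD, and the median was 0.28. Neither arm was therefore among the steadiest miRNAs above its floor. The sets have no upper limit, so the 214 include miRNAs far more abundant than miR-21-3p, which averaged 66.2 CPM.

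The arm ratio, miR-21-5p counts over miR-21-3p counts in the same library, needs no normalization between libraries. It was 124 in the lowest steer, 221 in the median steer and 791 in the highest. Expressed as a share, miR-21-3p made up 0.126% to 0.798% of the reads of both arms. The low end belonged to KC low-RFI steer 14, where 3p was 0.798% of both arms (95% Clopper-Pearson interval 0.737 to 0.864). Next came ratios of 132 in Angus low-RFI steer 02, 136 in Angus high-RFI steer 15 and 147 in KC low-RFI steer 03. The high end belonged to Charolais steer 16, where 3p was 0.126% of both arms (95% interval 0.0992 to 0.159), on 74 reads. Its miR-21-3p level, 19.1 CPM, was the lowest of the 60. Its miR-21-5p level depended on the scaling: it was 15124 CPM with TMM, near the Charolais median of 15192 CPM, but 0.972% of the library total, the lowest share of all 60 steers, with a TMM factor of 0.643. Intervals cover counting error only, and the SD that counting gives the log2 ratio had a median of 0.09, compared with an SD of 0.35 between steers within breeds. Charolais steer 16 adds to that 0.35, with a log2 ratio of 9.63 against a Charolais mean of 7.97.

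**Figure D2:**
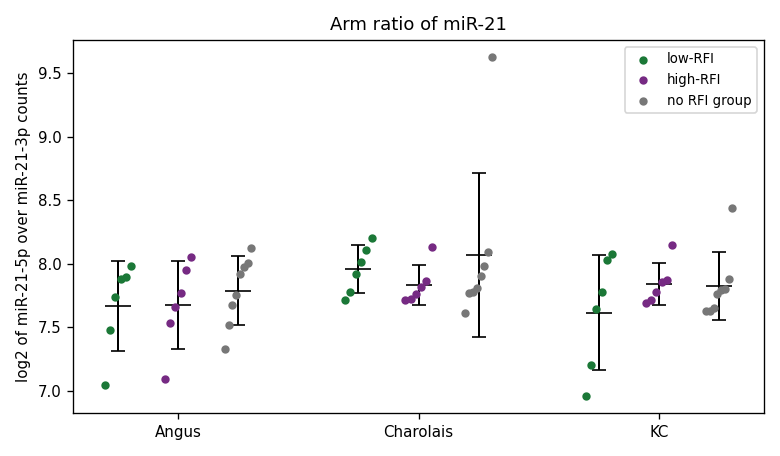
Log2 of the miR-21-5p to miR-21-3p count ratio in each steer, by breed and RFI group, with mean and SD. Most steers sit near the overall median of 7.79, and Charolais steer 16 stands highest at 9.63.

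Both arms were named and averaged more than 10 counts for 20 hairpins, and few of these were as uneven as miR-21. This floor leaves out hairpins with a scarcer second arm, so the ranking holds among the 20 only. Of these, 11 gave more 5p and 9 more 3p reads, and miR-21 had the second highest excess of 5p, with a median log2 ratio of 7.78. let-7a was above it at 8.61, with a 5p arm counted from 3 precursors and a 3p arm from 2. Below it came miR-99a at 5.40, miR-142 at 4.55 and miR-425 at 4.08. Among the 20, the largest imbalance in either direction was that of miR-22, a hairpin with an abundant 3p arm, at -9.83. The SD of the miR-21 log2 ratio within breeds, 0.35 with Charolais steer 16 included, was close to the median SD of the 20 hairpins, 0.33.

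**Figure D3:**
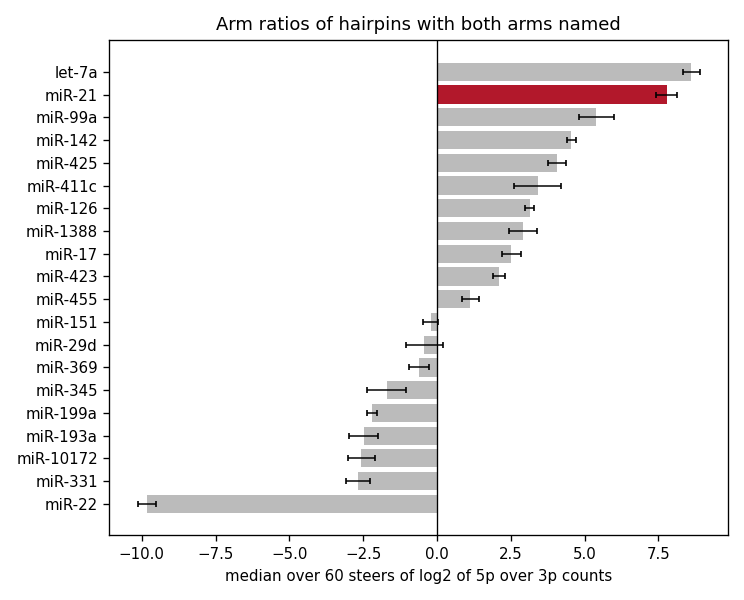
Median log2 ratio of 5p to 3p counts over 60 steers for the 20 hairpins with both arms named and averaging above 10 counts. Error bars give the within-breed SD. miR-21, in red, lies second from the top at 7.78, between let-7a and miR-99a.

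The first comparison asked whether either arm differed between efficient and inefficient steers of the same breed. In Angus, miR-21-5p ran from 12017 to 15271 CPM with a median of 13276 CPM in low-RFI steers. High-RFI Angus steers ran from 10994 to 15900 CPM with a median of 13178 CPM, so the low-RFI range lay inside the high-RFI range. The log2 fold change of low over high was 0.03 (SE 0.09, 95% interval -0.17 to 0.22, n = 6 each, edgeR adjusted p = 0.984). miR-21-3p ran from 50.3 to 100 CPM (median 63.7) in low-RFI and from 47.3 to 117 CPM (median 59.1) in high-RFI Angus. Each Angus group held a single steer well above the rest for the 3p arm, and the log2 fold change was 0.01 (SE 0.21, interval -0.43 to 0.44, edgeR adjusted p = 0.997). Without those steers, low-RFI steer 02 or high-RFI steer 15, it was -0.17 and 0.21, and for miR-21-5p leaving out single steers gave -0.042 to 0.074. With the library total as a covariate the log2 fold changes were 0.15 for miR-21-5p (edgeR adjusted p = 0.875) and 0.24 for miR-21-3p (adjusted p = 0.924). In Angus, 14 of 373 miRNAs had an unadjusted p under 0.05, which is 3.75%, and 0, or 0%, an adjusted one. Neither arm was among the 14, and DESeq2 also gave 0 after adjustment, with 12 at an unadjusted p under 0.05.

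In Charolais, low-RFI steers had miR-21-5p at 11794 to 22666 CPM with a median of 17200 CPM. High-RFI steers were less spread, at 12694 to 17718 CPM with a median of 15571 CPM. Of the low-RFI steers, 3 lay above every high-RFI steer and 1 lay below all of them. The log2 fold change was 0.17 (SE 0.15, interval -0.14 to 0.48, edgeR adjusted p = 0.987), and without low-RFI steer 15, the highest, it was 0.06. It was 0.07 with the library total as a covariate, 0.24 with library totals in place of TMM and 0.40 with sire as a block. Only 1 Charolais sire had steers in both RFI groups, low-RFI steer 01 and 4 high-RFI steers. The fit with sire as a block therefore compares that single steer, a library that stands apart, with others of its sire. miR-21-3p ran from 45.5 to 103 CPM (median 70.6) in low-RFI and from 56.3 to 83.8 CPM (median 70.8) in high-RFI steers. The log2 fold change of 3p was 0.06 (SE 0.19, interval -0.34 to 0.47, edgeR adjusted p = 0.998), and without steer 15 it was -0.09. Neither arm was among the 19 of 373 miRNAs, or 5.09%, with an unadjusted p under 0.05 in Charolais, where 0, or 0%, passed after adjustment. DESeq2 likewise had 0 after adjustment and 18 before it.

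In KC, miR-21-5p ran from 11377 to 14934 CPM (median 13771) in low-RFI and from 10751 to 19471 CPM (median 12826) in high-RFI steers. These groups overlapped throughout, with a log2 fold change of 0.03 (SE 0.11, interval -0.21 to 0.26, edgeR adjusted p = 0.995), and leaving out single steers gave -0.064 to 0.10. Of the 6 within-breed fits of all 12 steers, that of miR-21-3p in KC had the largest log2 fold change. Low-RFI KC steers had 50.1 to 110 CPM with a median of 63.2 CPM, and high-RFI KC steers had 45.4 to 83 CPM with a median of 55.9 CPM. The log2 fold change was 0.31 (SE 0.21, interval -0.14 to 0.76), with an unadjusted p of 0.158 and an adjusted p of 0.966 in edgeR. The 2 highest values, 101 and 110 CPM, were those of low-RFI steers 03 and 14. Without steer 14 the log2 fold change was 0.16, and without steer 03 it was 0.19. In KC, 14 of 385 miRNAs, or 3.64%, had an unadjusted p under 0.05, neither arm among them, and 0, or 0%, an adjusted one. DESeq2 called 1 after adjustment and 15 before it, again without either arm.

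Cell type markers were read beside these values. Of the 7 leukocyte miRNAs, 4 had an unadjusted p under 0.05 with a positive log2 fold change in KC, where 3.64% of all miRNAs did so in either direction, and 0 passed after adjustment by edgeR. The list's median log2 fold change was 0.26, against 0.03 over all 385 miRNAs tested. The log2 fold change was 0.69 (SE 0.21, edgeR adjusted p = 0.647) for miR-223, a neutrophil miRNA. It was 0.81 (SE 0.41, unadjusted p = 0.0649, adjusted p = 0.966) for miR-155, an activation marker of lymphocytes and macrophages that was not among the 4. In Charolais, 3 of 5 hepatocyte miRNAs had an unadjusted p under 0.05, against 5.09% of all miRNAs, with log2 fold changes of 0.32 for miR-122, -0.20 for miR-192 and -0.24 for miR-194. Beyond them, 1 of 6 stellate miRNAs had an unadjusted p under 0.05 in Charolais, miR-199b at -0.36. Of the 5 bile duct miRNAs 1 did so, miR-141 at -0.48. The other members ran from -0.12 to 0.009 in the stellate list and from -0.43 to 0.05 in the bile duct list. In Angus 1 of 7 leukocyte miRNAs, miR-142-5p at 0.17, had an unadjusted p under 0.05, against 3.75% of all miRNAs. After adjustment by edgeR, 0 of all these markers passed. The part of these cell types in the miR-21 values was not tested.

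Over the 36 labeled steers in a single fit, the log2 fold change of low over high RFI with breed in the model was 0.04 (SE 0.07, interval -0.11 to 0.19) for miR-21-5p. It was 0.10 (SE 0.13, interval -0.16 to 0.35) for miR-21-3p. The adjusted p in edgeR was 0.978 for both arms, and 13 of 426 miRNAs, or 3.05%, had an unadjusted p under 0.05. The interaction of RFI with breed gave an adjusted p of 0.994 for both arms, with 16 of 426 miRNAs, or 3.76%, at an unadjusted p under 0.05. Neither arm was among those 13 or those 16, and 0 miRNAs, or 0%, passed after adjustment in either test.

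No difference of the arm ratio between RFI groups passed the test. Angus steers had ratios of 132 to 252 (median 224) in the low-RFI and 136 to 266 (median 210) in the high-RFI group. The mean log2 ratio differed by -0.01, low minus high (exact two-sided permutation p = 0.972, adjusted over 3 breeds 0.972), and by -0.12 and 0.12 without high-RFI steer 15 and low-RFI steer 02. In Charolais the ratios were 210 to 295 (median 251) in low-RFI and 210 to 280 (median 221) in high-RFI steers, a mean log2 difference of 0.12 (exact permutation p = 0.245, adjusted p = 0.458). KC low-RFI steers spread widest, from 124 to 270 with a median of 210. High-RFI KC steers ran from 207 to 283 with a median of 226, and the mean log2 difference was -0.23 (exact permutation p = 0.305, adjusted p = 0.458). Of the 6 low-RFI KC steers, 3 lay below the whole high-RFI group, and without steer 14, the lowest, the difference was -0.10. The smallest p that relabeling 6 and 6 steers can give is 0.00216.

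**Figure D4:**
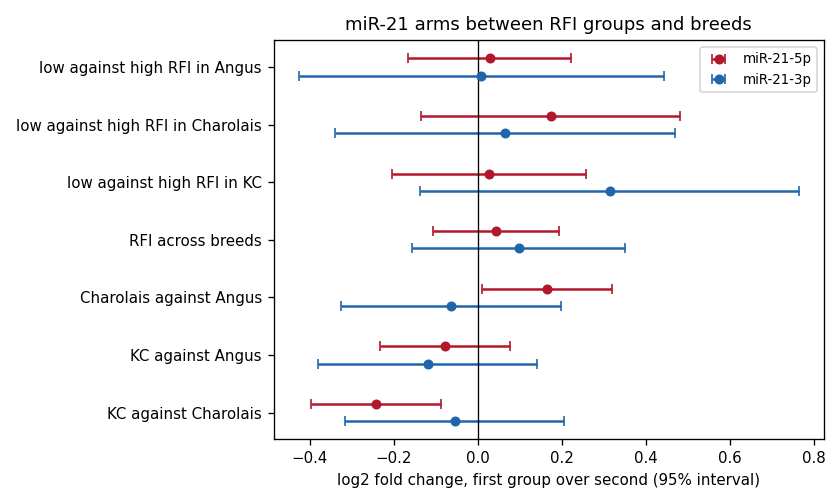
Log2 fold changes of both arms with 95% intervals from edgeR, first group over second, for the RFI and the breed comparisons. All intervals of the RFI comparisons cross 0, and for miR-21-5p the KC against Charolais interval lies below 0, at -0.40 to -0.09.

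The second comparison was between breeds, over all 60 steers. miR-21-5p was lower in KC than in Charolais. Charolais steers ran from 10973 to 23727 CPM with a median of 15192 CPM and a mean of 15958 ± 3360 CPM (SD, n = 20). KC steers ran from 10455 to 19471 CPM with a median of 13491 CPM and a mean of 13486 ± 2027 CPM (SD, n = 20). Angus lay between them at 10994 to 20286 CPM, median 13921 CPM and mean 14238 ± 2408 CPM (SD, n = 20). The 3 ranges overlapped over most of their length.

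The log2 difference of KC minus Charolais was -0.24 (SE 0.08, interval -0.40 to -0.09, edgeR adjusted p = 0.02). At that threshold 71 of 425 miRNAs, or 16.7%, were called in this comparison, and 38 of 425, or 8.94%, were called lower in KC. Charolais minus Angus was 0.16 (SE 0.08, edgeR unadjusted p = 0.037, adjusted p = 0.235), in a comparison where 80 of 425 miRNAs, or 18.8%, had an unadjusted p under 0.05 and 10, or 2.35%, were called. KC minus Angus was -0.08 (SE 0.08, adjusted p = 0.594), where 55 of 425, or 12.9%, were called. The test of any breed difference gave an adjusted p of 0.0431 for miR-21-5p in edgeR, with 83 of 425 miRNAs, or 19.5%, called. That call was lost under 9 of 13 alternatives, where the adjusted p ran from 0.0597 with precursors summed to 0.323 with library totals only.

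The KC against Charolais call held under some settings and was lost under others. It held with RLE normalization (-0.23, edgeR adjusted p = 0.0208), with DESeq2 (-0.23, adjusted p = 0.017) and without the 3 libraries of lowest TMM factor (-0.22, adjusted p = 0.0424). Without Charolais steers 01, 11 and 16, the libraries farthest from their breed, the log2 difference was -0.17 (edgeR adjusted p = 0.122). Steers 01 and 11 had miR-21-5p at 19718 and 23727 CPM, above the Charolais median. With the library total as a covariate it was -0.16 (adjusted p = 0.176), and with library totals in place of TMM it was -0.19 (adjusted p = 0.194). It was also lost in the 36 labeled steers (-0.20, adjusted p = 0.139) and, narrowly, without Charolais steer 16 and KC steer 06 (-0.21, adjusted p = 0.0517).

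For miR-21-3p the breeds did not differ detectably. Its mean was 69.0 ± 19.4 CPM in Angus, 66.1 ± 20.4 CPM in Charolais and 63.5 ± 18.2 CPM in KC (SD, n = 20 each). The medians were 63.2, 70.1 and 59.6 CPM in the same order, so the order of Angus and Charolais depended on the summary used. In edgeR the log2 differences were -0.06 for Charolais minus Angus (interval -0.33 to 0.20), -0.12 for KC minus Angus (interval -0.38 to 0.14) and -0.06 for KC minus Charolais (interval -0.32 to 0.20). The adjusted p of any breed difference was 0.790.

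The median arm ratio was 217 for Angus, 229 for Charolais and 219 for KC steers. As a mean on the log2 scale it was 7.72 for Angus, 7.97 for Charolais and 7.77 for KC. Charolais exceeded Angus by 0.25 (permutation p = 0.0257, adjusted over 3 pairs 0.0772) and KC by 0.20 (KC minus Charolais -0.20, permutation p = 0.0903, adjusted p = 0.135). KC and Angus differed by 0.05 (permutation p = 0.623, adjusted p = 0.623). None of the 3 differences passed after adjustment, and without Charolais steer 16 and KC steer 06, the steers with the highest ratios, the Charolais excess over Angus was 0.16. With medians in place of means it was 0.08.

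The arms rose and fell together across steers. Within breeds, Spearman's rho between miR-21-5p and miR-21-3p in log2 CPM was 0.60 in Angus (permutation p = 0.00556), 0.81 in Charolais (permutation p = 6e-05) and 0.71 in KC (permutation p = 0.00067), with n = 20 each. Adjusted over the 3 breeds these p-values were 0.00556, 0.00018 and 0.001. Pearson's r was 0.58, 0.62 and 0.60 in that order, each with a permutation p adjusted to 0.00765. Without the 2 steers farthest from the median of miR-21-5p, r came to 0.49 (Angus), 0.45 (Charolais) and 0.60 (KC). In Charolais a single library set r, which was 0.89 without steer 16 (n = 19). Both arms of a steer come from the same library and share its scaling; with library totals in place of TMM, r was 0.70, 0.82 and 0.74.

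**Figure D5:**
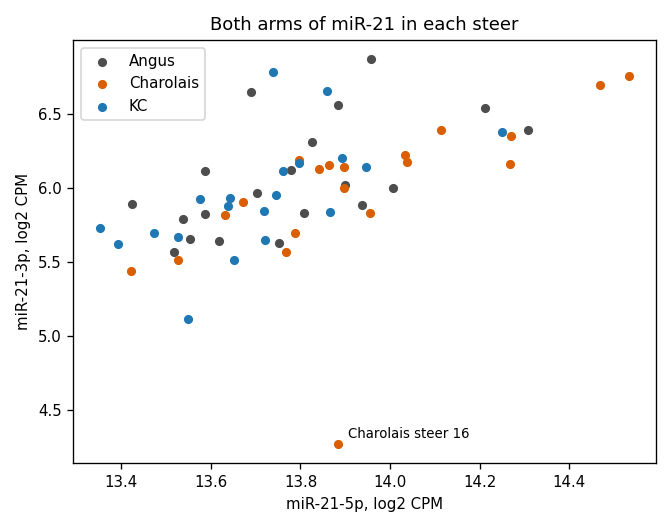
miR-21-3p against miR-21-5p in log2 CPM for each of the 60 steers, colored by breed. Charolais steer 16 lies far below the other steers at a miR-21-3p value of 4.27, and the remaining points rise together.

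Compared with all 424 other miRNAs in the fit, the arm partner was the most similar miRNA for each arm. After subtracting breed means, rho over the 60 steers was 0.70 between the arms. Next for miR-21-5p came let-7i, a let-7 family member, at 0.54, miR-221, a growth-associated miRNA that shares a cluster with miR-222, at 0.44, miR-378b at 0.43 and miR-130a at 0.42. Next for miR-21-3p came miR-92b at 0.46 and miR-221 at 0.43. After them came miR-363 and miR-10164-3p, both at 0.38, which averaged only 3.62 and 5.01 CPM. These correlations are descriptions of shared variation in 60 libraries that also share composition, and not all held in each breed. For miR-378b and miR-21-5p, rho was 0.02 among Angus, 0.57 among Charolais and 0.72 among KC steers. For let-7i the values were 0.64, 0.53 and 0.38. In Charolais rho with miR-21-3p was 0.19 for miR-92b, 0.17 for miR-221 and -0.05 for miR-10164-3p. Without Charolais steers 01, 11 and 16 the 4 values next to the partner of miR-21-5p ranged from 0.40 to 0.52.

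No correlation of miR-21-5p with cell type markers across steers passed the test. The summed CPM of 6 marker lists was compared with miR-21-5p within each breed, giving 18 correlations. Abundant members carry most of each sum. Over the 60 steers miR-143 had a median of 164470 CPM, where the stellate sum had breed medians of 162677 to 176515 CPM. The median of miR-486 was 6612 CPM, where the red cell sum had breed medians of 6269 to 7887 CPM. Scarce members such as miR-199b and miR-214 therefore weigh little. Spearman's rho ranged from -0.45 to 0.41, and the smallest permutation p adjusted over the 18 was 0.42. For the red cell list of miR-451, miR-144 and miR-486, rho was -0.45 both for Angus and for Charolais steers, and 0.05 for KC steers. Pearson's r for this list was -0.42 in Angus and -0.39 in Charolais, and -0.40 and -0.54 without the 2 steers farthest from the miR-21-5p median. The smallest permutation p of r adjusted over the 18 was 0.699. For the leukocyte list rho was 0.26, -0.19 and 0.03, and for stellate and mesenchymal miRNAs 0.09, -0.31 and 0.13. The hepatocyte list gave -0.28, -0.01 and -0.28, the endothelial list -0.32, 0.11 and -0.02 and the bile duct list 0.41, 0.06 and 0.09.

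Before adjustment, library depth went with both arms in Charolais by Pearson's r. The library total is also the divisor of CPM, so depth and CPM are not independent measures. Pearson's r between the log2 library total and the log2 CPM was -0.54 for miR-21-5p (permutation p = 0.014, adjusted over 9 correlations 0.0908) and -0.54 for miR-21-3p (permutation p = 0.0202, adjusted p = 0.0908). Without the 2 steers of most extreme depth these were -0.21 and -0.54. Spearman's rho was -0.41 and -0.53, and none of the 9 passed after adjustment. The other breeds gave r between -0.22 and -0.12 for the arms, and for the arm ratio r was 0.01 (Angus), 0.32 (Charolais) and 0.07 (KC). With all libraries thinned to 1930856 counts, the KC minus Charolais difference of miR-21-5p was -0.24 (edgeR adjusted p = 0.0202), whereas the covariate fit above gave -0.16 without a call.

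The steers of a breed were not unrelated, since 7, 5 and 10 sires were named for Angus, Charolais and KC. In the 2 largest Angus half-sib families miR-21-5p had medians of 14454 and 14527 CPM, over 6 and 5 steers. In Charolais the medians were 15571 CPM over 8 steers and 15192 CPM over 4, and the largest KC family had 13980.4 CPM over 8. Single steers of these families reached 20286 CPM in Angus, 22666 CPM in Charolais and 19471 CPM in KC. The 2 Angus families had miR-21-3p medians of 76.5 and 62.5 CPM and median arm ratios of 182 and 213. Medians vary less than single steers in any case, and the part of sire in these values was not tested.

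Other miRNAs tied to fibrosis and inflammation were read beside miR-21. Of the 16 on that list, 0 passed the adjusted test in any RFI comparison in edgeR, where 0% of all miRNAs passed. Between KC and Angus 2 of 16 were higher in KC and none lower, where 27 of all 425 miRNAs, or 6.35%, were called higher. They were miR-155, with a log2 difference of 0.46 (edgeR adjusted p = 0.0215), and miR-146a, a brake on NF-kB signaling, with 0.27 (adjusted p = 0.0333). Both belong to the leukocyte list too, where they were 2 of 7. Between KC and Charolais 1 of 16 was higher in KC, miR-125b with 0.36 (edgeR adjusted p = 0.000178), where 33 of 425, or 7.76%, were called higher. None of the 16 was called between Charolais and Angus, where only 10 of 425 miRNAs, or 2.35%, were called. Of the hepatocyte list, 1 of 5 was called between KC and Angus, miR-885, higher in KC by 0.55 (edgeR adjusted p = 0.000291), while miR-148a had -0.13 (adjusted p = 0.108). In the test of any breed difference, where 19.5% of all miRNAs were called, 2 of 5 passed, miR-885 and miR-122 (edgeR adjusted p = 0.0312). Of the fibrosis and inflammation list, 3 of 16 passed that test, miR-155, miR-146a and miR-125b. The stellate, red cell, endothelial and bile duct lists held 0 called miRNAs in any of these comparisons. Between breeds, the share of all miRNAs called was 2.35%, 12.9%, 16.7% and 19.5% by test, so 0 calls says little about lists this short.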

How the data were processed

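The deposited values were raw read counts per pair of mature miRNA and precursor, 1 library per steer. The authors clipped adaptors with cutadapt 1.16, kept reads of 15 to 28 bases, removed other small RNAs, mapped with Bowtie 1.1.1 to UMD3.1 and counted known bovine miRNAs of miRBase release 22 with miRDeep2. No normalization was applied. Here, counts were averaged over precursors and steers grouped by their labels. edgeR 4.0.16 (limma 3.58.1, R 4.3.3) gave quasi-likelihood tests with TMM normalization on rounded counts, Benjamini-Hochberg adjusted over all miRNAs tested. A miRNA was tested if it reached 1 CPM in 6 steers or more (fits of 12 or 36 steers) or in 10 or more (fit of 60). Log2 CPM used a prior count of 0.5. Breed contrasts share their samples pairwise. Arm ratios were tested by permutation, exact within breeds and with 100000 resamples between breeds, which also served correlations. All tests were two-sided. DESeq2 1.42.0 served as an alternative. Other steps used Python 3.11.15, numpy 2.4.6 and scipy 1.17.1. Procedures were tested on simulated data.

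The members and lists were chosen with earlier results of these data known. Named are both arms, miRNAs sharing a seed, the 5 miRNAs most similar to each arm, list members that passed the test and the 3 hairpins on each side in the order of arm ratios. Values of miR-122 and miR-192 as a check of the tissue, miR-22, of miR-223 and miR-155 in KC, of miR-148a between KC and Angus and of the markers named for Charolais RFI groups were chosen after they were seen. A total of 1930859 to 6759381 counts per steer stood behind each value, and 0 pairs of libraries were identical. Genome coordinates are not given, as no annotation of UMD3.1 was used here.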

Additional observations from a re-analysis of the deposited data

Results flagged for a closer look

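Each arm, in CPM and not in log2 CPM, and the log2 arm ratio were checked in the 9 groups of 6 or 8 steers. By the study's methods the labeled groups were chosen partly for consistent miRNA expression, and the steers without a label are the remainder. In 5 of these 27 sets a steer lay farther from its neighbor than Dixon's 95% value allows, and chance gives about 1 in 20 independent sets. The 27 sets share steers and arms, so they are not independent and no excess can be read from the 5. In Angus high-RFI steers, steer 15 had miR-21-3p at 117 CPM, compared with 47.3 to 69.5 CPM in the other 5. In Charolais high-RFI steers, steer 06 had a log2 arm ratio of 8.13, compared with 7.71 to 7.86 in the others. Among Charolais steers without an RFI label, steer 11 had miR-21-5p at 23727 CPM, while the others ran from 10973 to 16775 CPM. In the same group the log2 arm ratio of steer 16 was 9.63, against 7.61 to 8.10 in the rest. Among KC steers without an RFI label, steer 06 had a log2 arm ratio of 8.44, with the others at 7.62 to 7.88.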

How the results depend on the processing

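For the RFI comparisons of both arms, no setting gave an adjusted p under 0.05. In Angus, miR-21-5p changed sign without a filter on low counts (-0.00056), with sire as a block (-0.15) and with 36 steers in 1 fit (-0.0024), and miR-21-3p with RLE normalization (-0.0026), no filter (-0.019), precursors summed (-0.019), sire as a block (-0.14) and 36 steers in 1 fit (-0.021). Sire as a block uses the sires with steers in both RFI groups, which leaves 2 low-RFI and 3 high-RFI steers in Angus, 1 and 4 in Charolais and 1 and 3 in KC, so these values speak for those steers alone. The Angus arm ratio difference was 0.10 with medians. In Charolais, miR-21-3p was -0.050 with the library total as covariate. In KC, miR-21-5p was -0.00099 with RLE and with DESeq2, -0.0013 with precursors summed and -0.011 in the fit of 36 steers, and miR-21-3p was -0.12 with sire as a block. Leaving out 1 steer at a time gave -0.042 to 0.074 and -0.17 to 0.21 for 5p and 3p in Angus, 0.065 to 0.26 and -0.093 to 0.17 in Charolais, and -0.064 to 0.10 and 0.16 to 0.38 in KC. For the arm ratio the ranges were -0.12 to 0.12, 0.07 to 0.18 and -0.32 to -0.10.

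Between breeds, the miR-21-5p difference of KC and Charolais lost its call with library totals only (-0.19), the 36 labeled steers (-0.20), without Charolais steer 16 and KC steer 06 (-0.21), without Charolais steers 01, 11 and 16 (-0.17) and with the library total as covariate (-0.16). The adjusted p of any breed difference then was 0.323, 0.0985, 0.0857, 0.21 and 0.0638, and it was 0.0841 without a filter, 0.0597 with precursors summed and 0.0849 without the 3 lowest TMM factors. KC minus Angus changed sign for 5p in the 36 steers (0.040) and, with the covariate, for 5p (0.068) and 3p (0.052), as did 3p for Charolais minus Angus (0.00025) and KC minus Charolais (0.051). The sets of left-out libraries and the covariate were chosen after seeing the data. The cause of these changes was not tested.

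The labels number the steers 01 to 20 in each breed. With that replicate block the KC minus Charolais value was -0.22 (adjusted p = 0.0371) and the adjusted p of any difference was 0.0708. Same-numbered steers were not alike, with at most 4 of 20 pairs correlated over 0.1, and at most 1 of 20 steers of a breed correlated best with its own number. RFI groups of a breed share no numbers, so no block could be made there. Over all results, 193 alternatives other than leaving out 1 steer kept direction and call, 20 changed sign and 14 lost a call. Some of the 193 could not change. The interaction test has no sign, and leaving out Charolais and KC libraries does not touch results such as the arm correlation in Angus. The tally is therefore no measure of stability. Counts of miRNAs at an adjusted p under 0.05 ranged over the alternatives from 0 to 5 in the RFI comparison of Charolais (5 with sire as a block, which rests on 1 low-RFI steer), 0 to 1 in that of KC, 3 to 14 between Charolais and Angus, 22 to 76 between KC and Angus and 50 to 79 between KC and Charolais. Counting gave the log2 arm ratio a median SD of 0.09, against 0.35 between steers with Charolais steer 16 included.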
